A study of Homo sapiens with 24 samples.

Results

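The probes described here are those whose signal was lower after knockdown of BRM in SW-13 cells that kept SUZ12, both without and with IFNγ. BRM (SMARCA2) is one of the alternative ATPase motors of SWI/SNF, a complex that uses ATP to slide or evict nucleosomes and so opens regulatory DNA to transcription factors. The other motor is BRG1 (SMARCA4). SW-13, a line from a human adrenocortical carcinoma, is deficient in BRG1, and the study describes it as lacking SWI/SNF activity. The level of BRM in these cells was not read from the arrays. SUZ12 is a core subunit of PRC2, the complex that places the repressive mark H3K27me3, and PRC2 and SWI/SNF are known for opposing roles at many genes. IFNγ is a cytokine that induces interferon-stimulated genes.

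Of 47231 probes on the array, 66 were members, which is 0.140% of all probes and 0.458% of the 14395 that were detected (detection p-value below 0.01) in all 3 untreated siCtrl arrays. Membership required that detection and a mean log2 signal at least 0.585 (1.5-fold) lower in siCtrl + siBRM cells than in siCtrl cells in both IFNγ states. Of the detected probes, 139 met the fold in untreated cells, 118 in IFNγ-treated cells and 100 in both. Probes that siSUZ12 alone changed by 2-fold or more without IFNγ were then left out, of which 33 were lower and 1 was higher. Another 4 probe IDs were barred by name; 3 of these were among the 100, and all 3 were already among the 33.

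SW-13 cells were transfected with siCtrl or siSUZ12 at 50 nM, alone or together with siBRM at 75 nM, and were left untreated or given IFNγ for 6 hours. This gives 8 groups of 3 biological replicates, with 1 array each. All groups carried an siRNA, and the siBRM groups received 125 nM in total against 50 nM in the others. The siBRM came from another supplier than siCtrl and siSUZ12. Loss of BRM, other effects of the siBRM reagent and the larger siRNA load thus cannot be told apart. Knockdown is partial by nature and the cells are 1 tumor line. The probe IDs could not be paired with genes in the tables used here (0 matched). The members are therefore named by ID or by number, their roles and sequences are not given, probes of one gene may be counted more than once, and the depletion of BRM and SUZ12, marker genes and pathway lists were not read from these arrays. Within these arrays, calling the set genes lowered by BRM knockdown thus rests on the siRNA labels. The study also ran Western blots on SW-13 cells given siCtrl or siSUZ12, alone or with siBRM. It reported that BRM was marginally induced by depletion of PRC2. It also reported that adding siBRM changed the IFNγ induction restored by siSUZ12 at BRG1-dependent interferon-stimulated genes slightly or not at all.

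The 24 arrays were alike in quality. Mean signal ranged from 532 to 635 and the number of detected probes from 15223 to 16799. Each array was closest to another array of its own group in 24 of 24 cases. Among the 26369 probes detected in no array, the median normalized signal was 95.9 and the 99th percentile was 120, which marks the background level against which the dimmest members are read.

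Signal levels of the members are given as a description, since the arrays of untreated siCtrl cells took part in the choice. In untreated siCtrl cells their normalized signal (each array scaled to the same mean) ran from 163 to 18351, with a median of 929.7, against a median of 429 over all detected probes. Background was not subtracted, and choosing after neqc, which subtracts it, gave 116 probes, of which 54 were among the 66. Of the 66, 44 were above that median, 32 were above the upper quartile of 1104 and 8 were below the lower quartile of 222. A total of 54 were detected in all 24 arrays. Members 4, 8 and 16 were detected in the siCtrl arrays of both IFNγ states and in no array of the other 6 groups, where they read 127 or less.

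Members are numbered from 1 to 66 by the mean of their differences between siCtrl + siBRM and siCtrl cells in both IFNγ states, with 1 the largest fall. Members were selected on these values, which carry no test. The difference ran from −1.89 to −0.59 without IFNγ, with a median of −0.78 on the log2 scale, and from −1.74 to −0.59 with IFNγ, with a median of −0.76. All 3 siBRM arrays lay below all 3 siCtrl arrays for 66 of 66 members in either state, beside 18.7% (untreated) and 17.9% (IFNγ) of detected probes, and the rule makes such a count likely. Many members were near the threshold. The smaller of the 2 falls was within 0.05 of it for 19 members, and 21 other probes missed it by as little. The nearest 3 inside had −0.59 each and the nearest 3 outside had −0.58, −0.57 and −0.57.

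A few members stood well away from that limit. Member 1 (ILMN_1810725) read 1094, 1194 and 1102 in the 3 untreated siCtrl arrays and 315, 299.8 and 302 in the siCtrl + siBRM arrays, a mean of 1129.9 ± 55.6 against 306 ± 8.15 (SD, n = 3). With IFNγ it read 898, 860.2 and 818 against 269, 263 and 238. Member 2 had differences of −1.77 and −1.58, member 3 of −1.26 in both states and member 4 of −1.19 and −1.15.

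**Figure D1:**
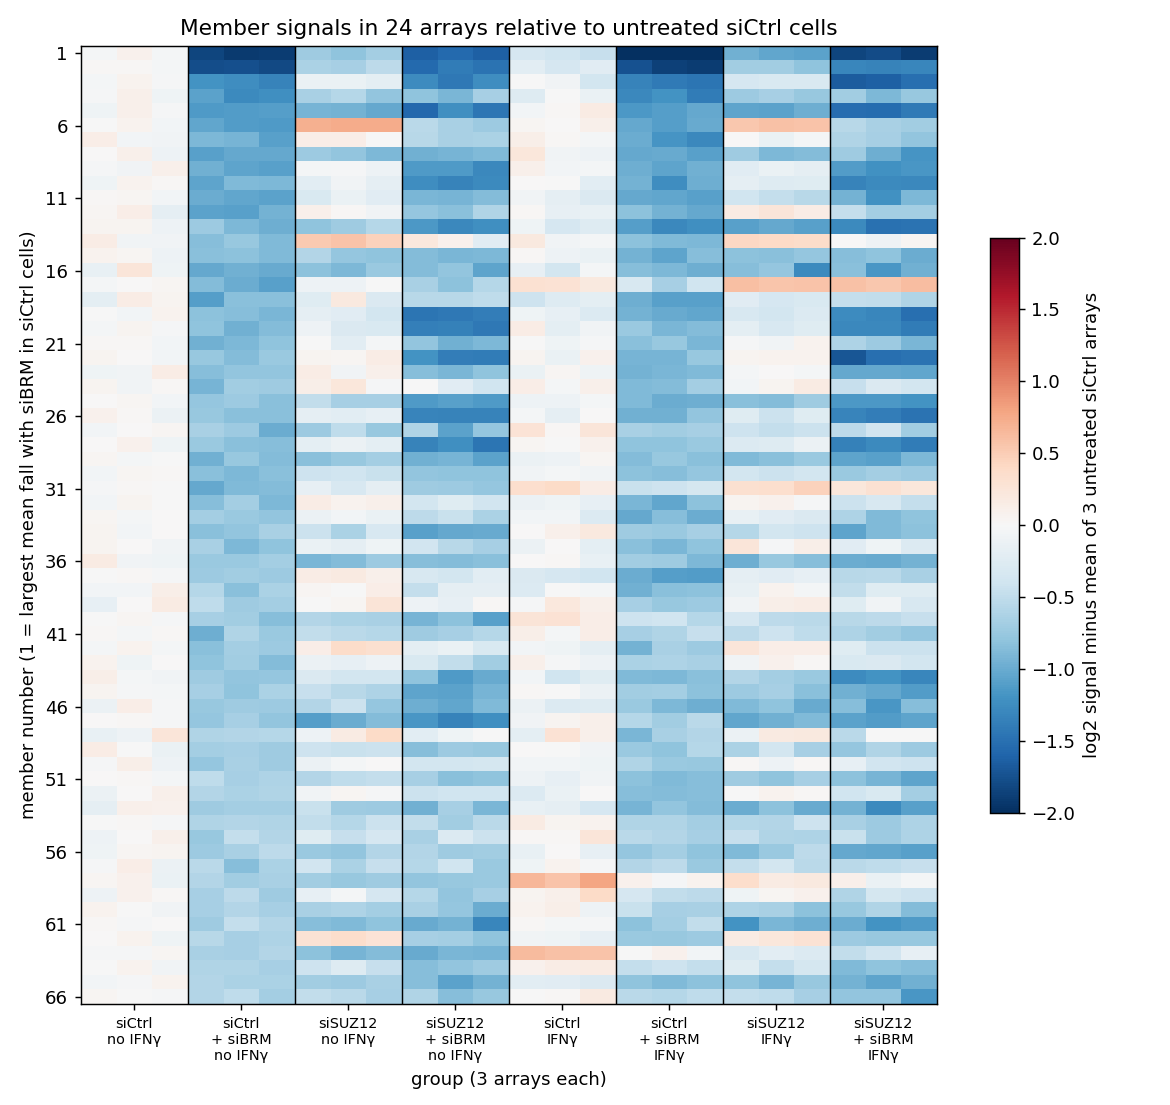
Log2 normalized signal of each of the 66 members (rows, ordered by member number) in each of the 24 arrays (columns, 3 per group), minus the member's mean in the 3 untreated siCtrl arrays. Blue is lower and red is higher. The untreated siCtrl + siBRM columns, which helped to choose the members, are blue in every row, and those with IFNγ in all rows but 58 and 63, while the siSUZ12 columns range from blue to red and the siSUZ12 + siBRM columns are blue in most rows.

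Whether the probes were also lower with siBRM in other cultures was asked of the siSUZ12 cells. The IFNγ-treated siSUZ12 and siSUZ12 + siBRM arrays took no part in the choice of members. There, 38 of the 66 members fell with siBRM (57.6%) and 0 rose, at an adjusted p-value below 0.05 in limma, with 46 below an unadjusted p of 0.05, all lower. By the same call 1.71% of all probes and 4.64% of detected probes fell. The median difference of the members was −0.33, with quartiles of −0.57 and −0.14 and a median SE of 0.083, beside medians of 0.03 over all probes and 0.02 over detected probes. The difference was below 0 for 65 of 66 members. All 3 siSUZ12 + siBRM arrays were below all 3 siSUZ12 arrays for 48 members (72.7%), against 15.5% of detected probes.

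The untreated siSUZ12 arrays were used by the rule, which left out 33 probes that were low in them, so values set against these arrays are not independent of the choice and are given as a description. In these cells 42 members fell with siBRM (63.6%) and 0 rose, with 50 below an unadjusted p of 0.05, beside 1.65% of all probes and 4.36% of detected probes that fell. The median difference was −0.40, beside −0.01 over all probes, and 65 members were below 0. The arrays did not overlap for 49 members (74.2%), beside 15.8% of detected probes. Without the siSUZ12 exclusion the siSUZ12 arrays played no part in the choice, and of the 97 probes then chosen 60 fell with siBRM in untreated and 51 in IFNγ-treated siSUZ12 cells. Both states called 35 members, only 1 state called 10, and neither state called 21. The same split was not made over detected probes, so nothing particular to the members is read from it. Of the members, 16 with IFNγ and 19 without were at least 1.5-fold lower, against 0.382% and 0.438% of detected probes that were called and that much lower.

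**Figure D2:**
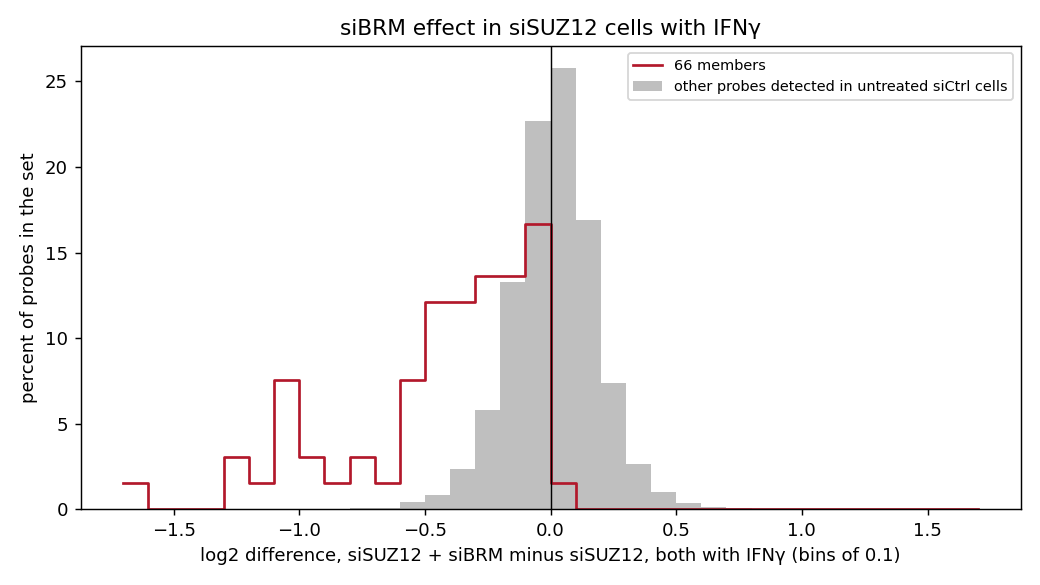
Percent of probes (y axis) by the log2 difference between siSUZ12 + siBRM and siSUZ12 cells, both with IFNγ (x axis, bins of 0.1), for the 66 members (red line) and for the other probes detected in untreated siCtrl cells (grey bars). The grey bars center near 0 and the members extend from −1.63 to 0.01.

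The size of the fall was smaller for most members in siSUZ12 cells than in the siCtrl cells that chose them. The ratio of the siSUZ12 value to the siCtrl value had a median of 0.425 with IFNγ and 0.497 without, and it was under 0.5 for 39 and 33 members. It was over 1 for 10 members in each state, 9 of them in both. The siCtrl values were selected to be large, so the difference between the 2 kinds of cells was not tested. The members' median fall varied little between arrays. Over the 9 pairings of a single siSUZ12 + siBRM array with a single siSUZ12 array, it ran from −0.40 to −0.31 with IFNγ and from −0.45 to −0.38 without. The pairings reuse arrays, and a median does not show that the arrays agreed on single members.

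**Figure D3:**
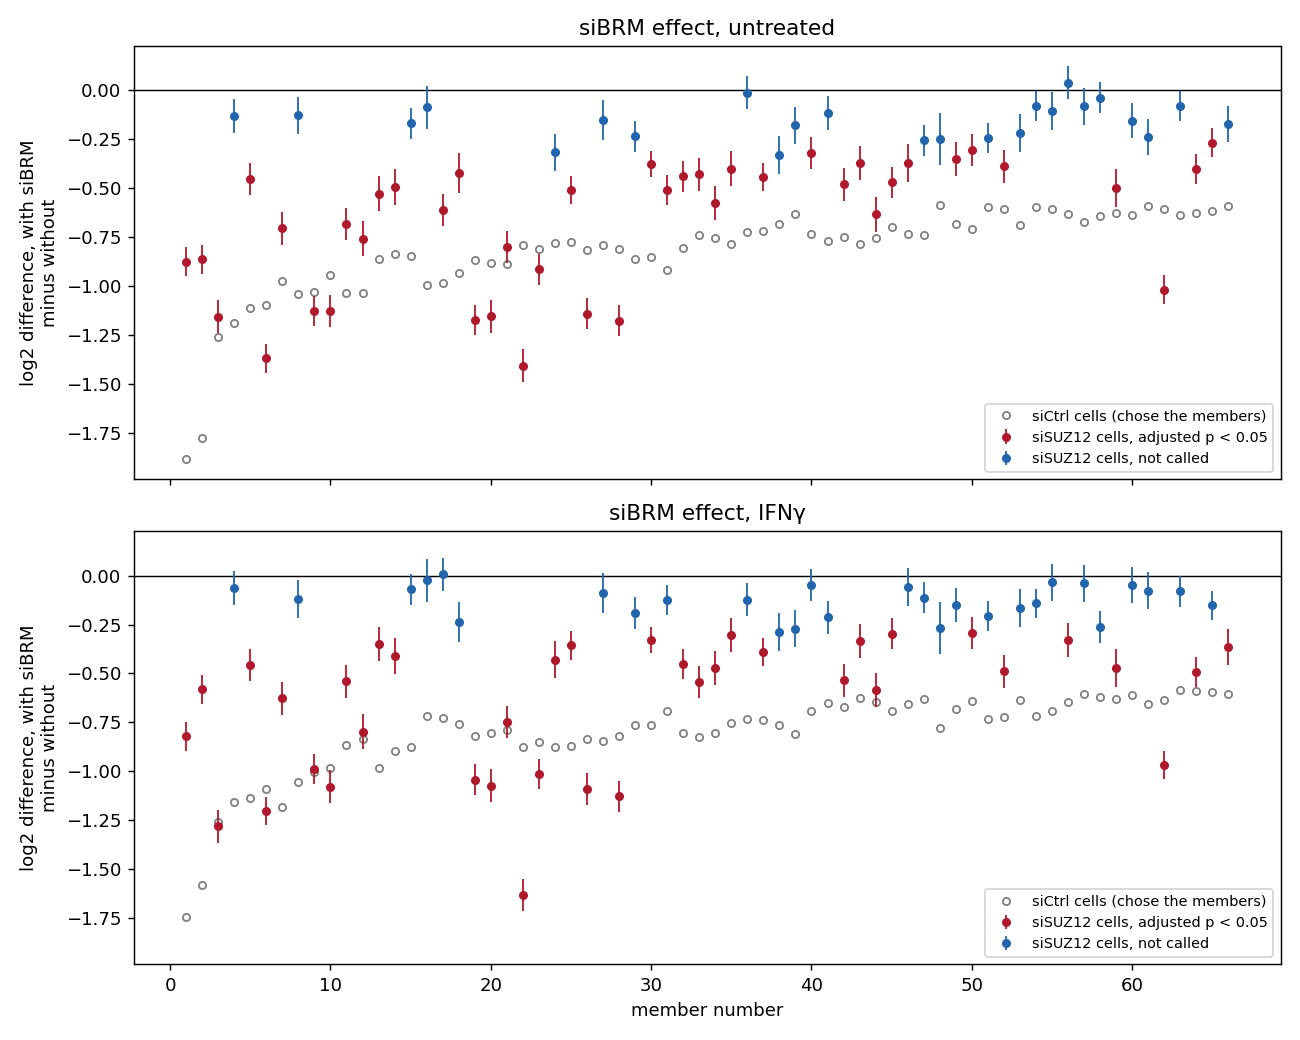
Log2 difference with siBRM minus without it (y axis) for each member number (x axis), in untreated cells (top) and IFNγ-treated cells (bottom). Open circles are siCtrl cells, which chose the members; filled circles are siSUZ12 cells with bars of 1 SE, red where the adjusted p-value was below 0.05 and blue where it was not. Member 22 is the lowest filled circle in both panels.

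The member with the largest fall in siSUZ12 cells was member 22 (ILMN_1748352). With IFNγ it read 1975, 1999 and 1999.7 in siSUZ12 arrays and 583, 666 and 685 in siSUZ12 + siBRM arrays. The groups were far apart, at 1991 ± 14.0 against 645 ± 54.2 (SD, n = 3), a log2 difference of −1.63 (SE 0.082, limma adjusted p = 2.92e-15). Untreated, it read 1965, 1952 and 2114 against 831, 727 and 721, a difference of −1.41. In siCtrl cells the same probe differed by −0.79 and −0.88, from 1965, 1909 and 1824 to 1125, 1043 and 1131 in untreated cells. Its siSUZ12 arrays were at the level of its siCtrl arrays, and its lowest arrays were those with both siRNAs.

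Other large falls in IFNγ-treated siSUZ12 cells were those of members 3, 6, 28 and 26. Member 3 read 614, 633 and 629.7 with siSUZ12 alone and 246, 252 and 275 with siBRM added, a difference of −1.28 (limma adjusted p = 1.02e-12) that was close to its −1.26 in siCtrl cells. Member 6 read 1212, 1253 and 1241 against 563, 532 and 516, a difference of −1.20 (adjusted p = 3.74e-13). It was also the member most raised in siSUZ12 cells, from 825, 870.3 and 802 in untreated siCtrl arrays to 1360.1, 1391 and 1392, so that the siSUZ12 + siBRM arrays, at 572, 531 and 503, stood between the siCtrl and the siCtrl + siBRM levels. Member 28 read 2527, 2555 and 2812 against 1195, 1259 and 1154 (−1.13, adjusted p = 3.83e-12). Member 26 read 5369.5, 4682 and 5337 against 2521, 2424 and 2274 (−1.09, adjusted p = 1.57e-11). In none of these 4 did an array with siBRM reach an array without it. Members 9, 10, 19, 20 and 23 had falls from −1.08 to −0.99, and member 62 of −0.97.

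Of the 8 members with the largest falls in siCtrl cells, 6 were called in both IFNγ states of siSUZ12 cells. The untreated calls use arrays that the rule used, and calls in both states were not counted over detected probes. Nothing is read from this count. Member 1 fell in siSUZ12 cells from 583, 549 and 538 to 317, 326 and 303 with IFNγ (−0.82, limma adjusted p = 2.64e-09) and from 686, 648 and 705 to 364, 382 and 365 without (−0.88). Its siSUZ12 + siBRM arrays were slightly above its siCtrl + siBRM arrays, and its siSUZ12 arrays lay between those and the siCtrl arrays. Member 2 fell from 685, 682 and 630.3 to 446, 439 and 449 with IFNγ (−0.58, adjusted p = 2.63e-06). Member 5 was low in siSUZ12 cells already, at 193, 191 and 205, and fell to 140.0, 139 and 150.1 (−0.46, adjusted p = 0.00057). Member 7 fell from 1158, 1046 and 1118 to 761, 727 and 664 (−0.63, adjusted p = 8.35e-06).

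Members 4, 8 and 16 were not called in siSUZ12 cells, where they were detected in no array. Member 4 read 113, 118 and 111 in IFNγ-treated siSUZ12 arrays and 116, 100.04 and 111 with siBRM added, a difference of −0.06 (limma adjusted p = 0.857). In untreated siCtrl arrays it read 185, 201 and 177, and 89.4, 77.8 and 80.1 with siBRM. Member 8 read 98.9, 87.0 and 88.8 against 99.6, 83.0 and 71.9 (−0.12, adjusted p = 0.691). Member 16 read 94.8, 100.1 and 71.2 against 96.0, 76.3 and 88.0 (−0.02, adjusted p = 0.97).

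At the other end, the smallest differences in IFNγ-treated siSUZ12 cells were those of members 17, 16 and 55. Member 55 read 143, 130.2 and 128 without siBRM and 146, 119 and 128 with it, so the arrays overlapped (−0.04, limma adjusted p = 0.942). Member 17 is described with the IFNγ responses.

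The siSUZ12 effect differed widely among the members. It is given as a description, since its siCtrl arrays chose the members and its size was capped by the rule. Untreated siSUZ12 cells differed from siCtrl cells by −0.99 to 0.73, with a median of −0.35, and were lower for 52 members. The untreated siBRM calls in siSUZ12 cells use the same untreated siSUZ12 arrays as the siSUZ12 effect, with opposite sign. Grouping members by those calls is thus not independent of the siSUZ12 effect. The 35 members called with siBRM in both IFNγ states had a median siSUZ12 effect of −0.15, the 10 called in 1 state −0.50 and the 21 called in neither −0.67. Their median differences with siBRM in IFNγ-treated siCtrl cells were −0.82, −0.69 and −0.72. Their median signals in untreated siCtrl cells were 1129, 473 and 751.

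The siSUZ12 effect in untreated cells and the siBRM effect in IFNγ-treated siSUZ12 cells, which share no array, had a Pearson correlation of −0.52 and a Spearman correlation of −0.53 over the 66 members, beside −0.19 and −0.16 over the 14395 detected probes. The first of these is built from arrays that the rule used and was capped by it, so the values describe these members and support nothing further. The siSUZ12 level also enters both effects, with opposite sign, which favors a negative value even though no array is shared. The points share cell line, array type and normalization. Over the 44 members brighter than the detected median the values were −0.53 and −0.52. With limits on the siSUZ12 effect chosen after its values were seen, 26 members at −0.5 or lower had a median siBRM difference of −0.16. Another 26 between −0.5 and 0 had a median of −0.48. The 14 at 0 or above had a median of −0.49. Signal moved with this grouping, since 11, 8 and 3 of these members were below the detected median, and its part in the result was not tested.

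**Figure D4:**
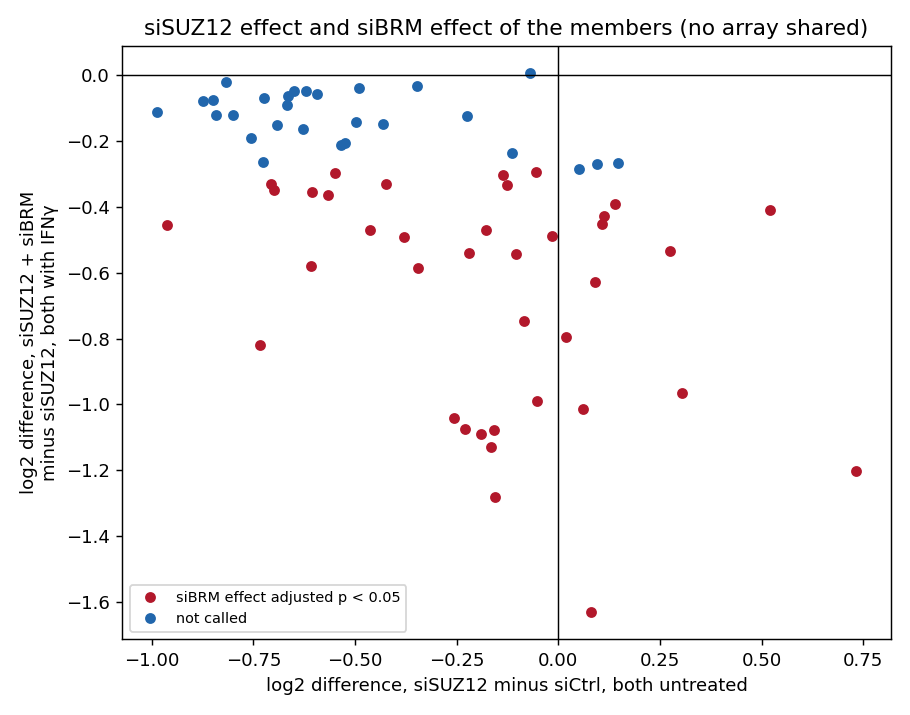
Each point is a member, placed by its log2 difference between siSUZ12 and siCtrl cells, both untreated (x axis), and between siSUZ12 + siBRM and siSUZ12 cells, both with IFNγ (y axis); red points had an adjusted p-value below 0.05 for the y axis difference. Most points at the left, the members most lowered by siSUZ12, lie near 0 on the y axis, and the points below −1.0 lie between −0.26 and 0.73 on the x axis.

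Over the members as a whole, the median signal was alike in cells with both siRNAs and in cells with siBRM alone, while single members differed in either direction. The siCtrl and siCtrl + siBRM arrays chose the members, and the rule also used the untreated siSUZ12 arrays. The levels and orders below are therefore a description, and whether the knockdowns add was not tested. The median member signal in untreated cells was 929.7 with siCtrl, 690.3 with siSUZ12, 482 with siCtrl + siBRM and 484 with siSUZ12 + siBRM. With IFNγ it was 886, 675, 485 and 514 in the same order. The difference between siSUZ12 + siBRM and siCtrl + siBRM had a median of −0.04 without IFNγ and −0.02 with it. It ranged from −0.56 to 0.86 without IFNγ, with quartiles of −0.22 and 0.29, and from −0.69 to 1.04 with it, with quartiles of −0.22 and 0.39. It was below 0 for 35 members and above 0 for 31 without IFNγ, and for 36 and 30 with it. The lowest of the 4 untreated groups was siCtrl + siBRM for 31 members, siSUZ12 + siBRM for 34 and siSUZ12 for 1. The highest was siCtrl for 52 members and siSUZ12 for 14.

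Most members did not respond to IFNγ at the size these arrays resolve. The siSUZ12 comparison uses the untreated siSUZ12 arrays by which probes were left out. In siSUZ12 cells 4 members rose and 4 fell (limma, adjusted p below 0.05), with a median change of −0.06, where 2.82% of detected probes rose and 1.74% fell. In siSUZ12 + siBRM cells 6 rose and 2 fell, with a median of −0.03, where 3.49% of detected probes rose and 2.68% fell. These are counts of a few members each, and nothing particular to the members is read from them. The changes in the siCtrl and siCtrl + siBRM cells that chose the members had medians of −0.04 and −0.03 and are given without a test.

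Members 17, 31, 58 and 63 rose with IFNγ in both kinds of siSUZ12 cells. Member 17 (ILMN_1843198) rose from 350.2, 354 and 377 to 572, 556 and 563 in siSUZ12 cells (0.65, limma adjusted p = 1.25e-06) and from 239.8, 215 and 254 to 569, 551 and 579 in siSUZ12 + siBRM cells (1.26, adjusted p = 1.04e-13). Its IFNγ-treated arrays thus overlapped with and without siBRM, at 564 ± 8.15 and 566 ± 14.2 (SD, n = 3), while the untreated ones did not. Member 31 (ILMN_2338038) rose from 469, 423 and 464 to 661, 667 and 725 (0.60, adjusted p = 1.26e-06) and from 323, 320.0 and 308 to 616, 649 and 618 (0.98, adjusted p = 9.26e-12). In siCtrl and siCtrl + siBRM cells the changes of member 17 were 0.27 and 0.52, and those of member 31 were 0.29 and 0.52.

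Members 58 and 63 were higher with IFNγ in all 4 kinds of cells, and so were members 17, 31 and 40. Member 58 went from 888, 850.0 and 883 to 1836, 1624 and 1659.8 in siSUZ12 cells (0.96, limma adjusted p = 5.94e-11) and by 0.74 in siSUZ12 + siBRM cells (adjusted p = 3.45e-08), beside 0.67 in siCtrl and 0.69 in siCtrl + siBRM cells. Member 63 went from 171, 158 and 167 to 241, 262 and 251 (0.61, adjusted p = 1.39e-06) and by 0.60 in siSUZ12 + siBRM cells (adjusted p = 1.30e-06), beside 0.59 and 0.65. Neither was called with siBRM in siSUZ12 cells, where the differences were −0.26 and −0.08 with IFNγ. In siSUZ12 + siBRM cells member 35 rose from 216, 192 and 178 to 242, 266 and 234 (0.34, adjusted p = 0.0216) and member 40 from 198, 213 and 178 to 256, 262 and 274 (0.43, adjusted p = 0.000765). Their changes in siSUZ12 cells were 0.25 and 0.16 and were not called.

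The falls with IFNγ were small. Member 37 fell in both kinds of siSUZ12 cells, from 3211, 3292 and 3114 to 2559, 2497 and 2595 (−0.33, limma adjusted p = 0.00546) and from 2322, 2248 and 2513 to 1978, 1993 and 1859.7 (−0.28, adjusted p = 0.0222). In siSUZ12 cells member 1 also fell (−0.29, adjusted p = 0.0304), member 13 fell from 352, 377 and 414 to 291, 303 and 292 (−0.36, adjusted p = 0.0158) and member 44 from 332, 313 and 314 to 271, 255 and 243 (−0.32, adjusted p = 0.0485). In siSUZ12 + siBRM cells member 56 fell from 278, 255 and 259 to 207, 204 and 197 (−0.38, adjusted p = 0.00724). In the comparisons that called them, no array of these members overlapped between IFNγ states, which such a call makes likely. Few such calls were made with fewer arrays: without any one replicate number, 1 or fewer members were called lower in siSUZ12 cells and 0 in siSUZ12 + siBRM cells.

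**Figure D5:**
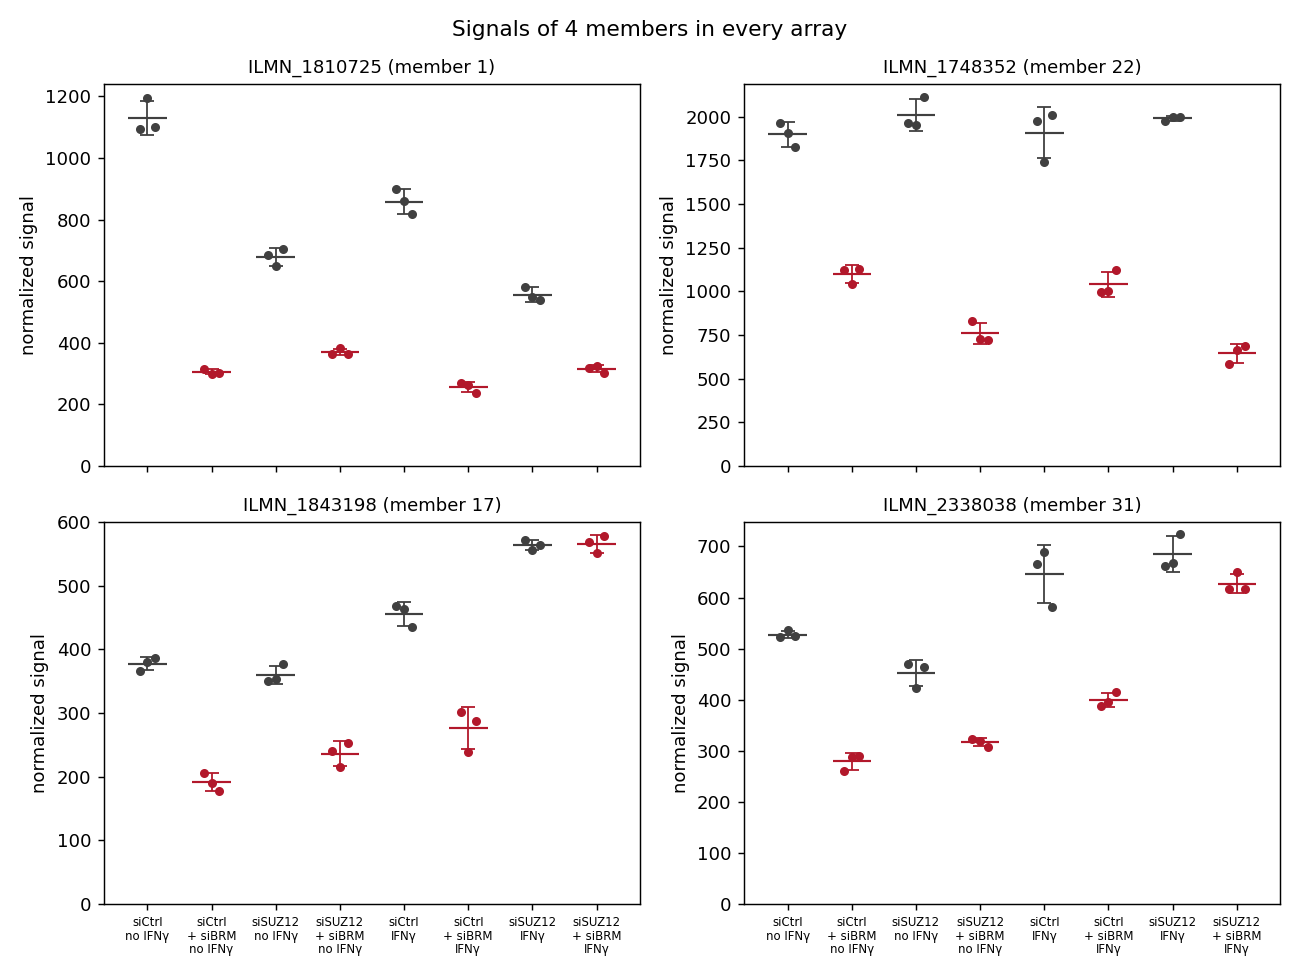
Normalized signal (y axis, linear, from 0) of members 1, 22, 17 and 31 in each of the 24 arrays by group (x axis); points are arrays, bars are the mean and SD of 3, and red marks siBRM. Member 22 is lowest in the groups with both siRNAs, and member 17 reads 551 to 579 in IFNγ-treated siSUZ12 + siBRM cells and 556 to 572 in IFNγ-treated siSUZ12 cells.

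The effect of siBRM was compared between IFNγ states within siSUZ12 cells. It also uses the untreated siSUZ12 arrays, so it is not independent of the choice of members. The interaction had a median of 0.05 over the members and a range from −0.37 to 0.62. In limma 1 member was called, with a smaller fall under IFNγ (member 17), and 0 with a larger one, while 6 were below an unadjusted p of 0.05. Of all probes 0.0275% were called in either direction, and of detected probes 0.0208%. Member 17 fell with siBRM by 0.61 without IFNγ and had 0.01 with it (adjusted p = 0.99), an interaction of 0.62 (adjusted p = 0.0408). The call was lost without any one replicate number and in most leave-outs of a single array. Member 31 had the same order, with −0.51 and −0.12 (adjusted p = 0.554), and its interaction was not called.

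The nonmembers with the most similar profile over the 8 group means had Pearson correlations of 0.979 to 0.984 with the members' mean standardized profile. These 5 detected probes had siBRM differences of −0.45 to −0.14 in siCtrl cells and −0.28 to −0.10 in IFNγ-treated siSUZ12 cells. Detected probes that met the fold in both IFNγ states were members unless left out for the siSUZ12 effect or by ID. Smaller falls of nonmembers in siCtrl cells are thus largely set by the rule, and nothing is read from them.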

How the data were processed

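SW-13 cells in 8 groups of 3 arrays were compared; groups and replicate numbers came from the sample labels. The authors hybridized cRNA to Illumina BeadChips, whose deposited table gives unnormalized signal intensity per probe, each with a detection p-value. The study names average normalization in BeadStudio, with no formula in the sources used here. Each array was multiplied by the mean of all array means over its own mean, values were put on the log2 scale with a floor of 16 (0 signals were at it). All fits used R 4.3.3. limma 3.58.1 was fitted to all 24 arrays with 1 mean per group (16 residual degrees of freedom); p-values were adjusted (Benjamini-Hochberg) over 47231 probes and called below 0.05. The median residual SD was 0.11 (log2). Permuting 3 arrays against 3 cannot give a p below 0.10.

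The members and the lists were chosen with earlier results of these data known. Members were described in full by rule: the 8 largest falls in siCtrl cells, the 5 largest and 3 smallest in IFNγ-treated siSUZ12 cells, and up to 5 called per IFNγ or interaction test; not every array value is printed. At most 2 IDs per direction are printed. Gene lists, cell markers, knockdown checks and the choice of 1 probe per gene needed gene names and were not run. On simulated data of the siSUZ12 + siBRM against siSUZ12 comparison with IFNγ, 47231 probes with 200 lowered, 100% were recovered at a log2 change of −1, 98.5% at −0.585 and 15% at −0.3, with 16, 8 and 1 false calls. The simulated noise was independent between arrays, and all other probes had no siBRM difference in this comparison. In the data 809 probes were called lower and same-numbered arrays tended to share deviations, so these rates need not hold there. Intensities carry no counts, so the number of arrays limits precision. The alternatives were quantile normalization, neqc (background correction from detection p-values, offset 16), a floor of 64, a detection filter, a fit of 12 arrays, trend and robust variance, a replicate block, calls at 1.5-fold, left-out arrays and other membership rules.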

Additional observations from a re-analysis of the deposited data

Results flagged for a closer look

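Member 17 (ILMN_1843198) had a siBRM effect that differed between IFNγ states in siSUZ12 cells by a test of the difference itself, with an interaction of 0.62 on the log2 scale (limma adjusted p = 0.0408, 3 arrays in each of 4 groups). The interaction uses the untreated siSUZ12 arrays, by which probes were left out of the set, so it is not independent of the choice of members. The siSUZ12 + siBRM arrays of member 17 were below the siSUZ12 arrays without IFNγ and overlapped them with IFNγ. The call was lost with neqc, with only the 12 siSUZ12 arrays, without any one replicate number and without any single array of the 12 other than the third untreated siSUZ12 + siBRM array.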

How the results depend on the processing

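In the 22 alternatives that refit single probes, the siBRM effect in IFNγ-treated siSUZ12 cells kept its direction and call for ILMN_1810725 (−1.03 to −0.79) and ILMN_1748352 (−1.76 to −1.56), and so did the IFNγ effect in siSUZ12 + siBRM cells for ILMN_1843198 (1.198 to 1.68) and ILMN_2338038 (0.96 to 1.23). No result reversed. With neqc the members' median siBRM difference was −0.44 with IFNγ and −0.50 without, 0 members had a called interaction and 5 fell with IFNγ in siSUZ12 + siBRM cells. With probes detected in at least 3 arrays, 7 fell with IFNγ in siSUZ12 and 7 in siSUZ12 + siBRM cells; with only 12 arrays these were 2 and 1, with 0 interactions, and with trend and robust variance 4 fell in the latter. Calls at 1.5-fold left 16 members lower with siBRM with IFNγ, 19 without, and 0 and 0 lower with IFNγ. Of 8 members at 2-fold, 6 and 6 fell with siBRM, with medians of −0.70 and −0.87, and in the IFNγ tests 0 rose and 1 fell in siSUZ12 cells, 0 rose and 0 fell in siSUZ12 + siBRM cells, with 0 interactions. After quantile normalization 58 probes were members, with an untreated median of −0.43. Without the siSUZ12 exclusion 97 were members, with medians of −0.30 and −0.37 and 2 interactions. Choosing after neqc, added after seeing the data, gave 116 members, of which 54 were among the 66, with medians of −0.26 and −0.33, and 11 rose and 4 fell with IFNγ in siSUZ12 + siBRM cells.

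Leaving out a replicate number or a single array gave 27 to 38 members lower with siBRM with IFNγ and 29 to 43 without, with medians from −0.39 to −0.30 and from −0.44 to −0.38. Interactions ranged from 0 to 1, members that rose with IFNγ from 4 to 4 in siSUZ12 and 4 to 6 in siSUZ12 + siBRM cells, and those that fell from 0 to 4 in each. Members chosen without a replicate number, added after seeing the data, numbered 64 to 65. The replicate block gave 38 and 43 members lower with siBRM and changed no other count or call. The deviations of same-numbered arrays correlated from −0.10 to 0.40 (median 0.14), with 51 of 84 pairs over 0.1. Those of differently numbered arrays correlated from −0.34 to 0.19 (median −0.06). Of the 24 arrays, 16 correlated best with their own number. Arrays of the same number thus tended to share deviations, which the main fit did not model. The study names no pairing, and the source of the shared deviations was not tested. Choosing 1 probe per gene was not run. The causes of these changes were not tested.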
